A study of Homo sapiens with 12 samples.

Results

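The 10 genes described here are the mitochondrially encoded respiratory genes MT-ND1, MT-ND2, MT-ND4, MT-ND5, MT-ND6, MT-CYB, MT-CO1, MT-CO2, MT-CO3 and MT-ATP6. They were chosen by symbol, were all found, and are 10 of the 62426 genes in the count table and 10 of the 37 rows on the mitochondrial chromosome. RNA was sequenced from 12 libraries of HCT116 and SW480, established lines of human colon cancer cells, with 2 libraries in each of 6 groups. In each line, CD44s-OE cells were transfected with a plasmid for CD44s, the standard isoform of the cell surface receptor CD44, and CD44v6-OE cells with a plasmid for the CD44v6 splice isoform. Both carried the plasmid stably under Geneticin selection, and the reference in each line was the untransfected parental cells. No empty-vector group was among the samples, so isoform, transfection and selection cannot be told apart in a comparison with parental cells. The column headings of the overexpressing libraries contain the word POOL, whose meaning the sources used here do not give.

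The respiratory chain in the inner mitochondrial membrane passes electrons from NADH to oxygen and uses the proton gradient this builds to make ATP. Most of its subunits come from nuclear genes, but a core set is encoded by mitochondrial DNA, whose strands are each transcribed as long precursors that are cut at the tRNAs lying between the genes. MT-ND6 is the only protein gene transcribed from the opposite strand, and its mRNA is known to carry little or no poly(A) tail, whereas the other mRNAs are polyadenylated inside the mitochondrion. The labels describe the sequenced RNA as polyA RNA.

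All 10 genes have a single exon on the mitochondrial chromosome of 16569 bases, at the same positions in the count table and in the GRCh37 reference. They run from MT-ND1 at chrM:3307-4262 to MT-CYB at chrM:14747-15887, and MT-ND6 lies on the minus strand at chrM:14149-14673, directly next to the end of MT-ND5. In 5 of the 10 genes the DNA holds no whole stop codon, since the length is not a multiple of 3, and the tail added to the mRNA is known to complete it. The last 24 bases of these 5 genes on the coding strand are shown first, with the incomplete codon in capitals, followed by MT-ATP6 and MT-ND6, whose last codon is whole and also in capitals.
MT-ND1: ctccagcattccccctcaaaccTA
MT-ND2: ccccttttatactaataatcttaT
MT-ND4: acatcattaccgggttttcctctT
MT-CO3: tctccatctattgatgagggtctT
MT-CYB: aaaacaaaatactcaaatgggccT
MT-ATP6: ctctacctgcacgacaacacaTAA
MT-ND6: attgagattgctcgggggaatAGG
Each of these 5 genes with an incomplete stop is followed on its strand by a tRNA gene at a distance of 0 bases. Neighbouring genes can also overlap, as at the end of MT-ND4L and the start of MT-ND4 (chrM:10760-10766), where the 7 shared bases are in capitals.
MT-ND4L/MT-ND4: acctactccaATGCTAAaactaatcgt
MT-ATP8 and MT-ATP6 share 46 bases (chrM:8527-8572) and MT-ATP6 and MT-CO3 share 1 base. Reads that touched both genes of such a pair were not assigned to either, so the counts of MT-ATP6, MT-ND4 and MT-CO3 leave out the reads over these borders.

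Each library held 43102156 to 52811889 assigned reads. Replicates of every group differed by more than counting noise, with a mean chi-square per gene of 11.8 to 121 and a median of 3.01 to 16.8. Both reads of a pair and duplicates were counted, so the counts are not fully independent. Total CD44 RNA, which covers every isoform, did not show the overexpression that the labels name. It was at 552 and 533 CPM (counts scaled to a common library total) in HCT116 CD44s-OE, 509 and 524 CPM in HCT116 CD44v6-OE and 538 and 526 CPM in HCT116 parental cells. The SW480 values were 187 and 203 CPM for CD44s-OE, 135 and 147 CPM for CD44v6-OE and 172 and 165 CPM for parental cells. Against parental cells, its log2 fold change was 0.01 in HCT116 CD44s-OE, −0.09 in HCT116 CD44v6-OE, 0.12 in SW480 CD44s-OE and −0.34 in SW480 CD44v6-OE. None of the 6 comparisons of CD44 within a line passed (edgeR adjusted p 0.274 to 0.959). Total CD44 RNA cannot tell the isoforms apart, and their levels were not measured separately in these libraries here. By RT-qPCR and western blot, the study analysed CD44s and CD44v6 in HCT116 and SW480 cells overexpressing either isoform. It presents these cells as ectopically expressing the isoforms, and it scaled the RT-qPCR to the constitutive CD44 exons. That measure is relative to CD44 as a whole, unlike the CPM of total CD44 RNA given here. The names CD44s-OE and CD44v6-OE stand throughout for libraries labelled so, and in these libraries every direction given for them rests on the labels. The summed level of 8 epithelial markers was 5844 to 17427 CPM, although CDX1, an intestinal transcription factor, was under 1 CPM in every library. The sum was 8549 to 9991 CPM in SW480 CD44s-OE and 17379 to 17427 CPM in SW480 parental cells. In HCT116 it was 5844 to 7093 CPM in CD44s-OE and 6849 to 8243 CPM in parental cells, which overlap. These sums were not tested. The leukocyte list of 5 genes summed to 0.209 to 1.38 CPM and the endothelial list (3 of 4 genes found) to 0.646 to 2.14 CPM. Nothing in the labels says that the 2 libraries of a group came from separate cultures, so the p-values measure only the spread between these libraries, which may be technical.

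The 10 mRNAs took up a larger share in the HCT116 libraries labelled CD44s-OE than in any other group. Together they accounted for 9.98% and 8.03% of the assigned reads in HCT116 CD44s-OE, for 5.66% and 5.61% in HCT116 CD44v6-OE and for 5.66% and 3.29% in HCT116 parental cells. In SW480 the shares were 5.03% and 3.88% in CD44s-OE, 3.92% and 6.45% in CD44v6-OE and 3.25% and 5.53% in parental cells. Both HCT116 CD44s-OE libraries thus lay above all other 10 libraries, while the SW480 groups overlapped one another. The 95% Wilson interval of each share was at most 0.00818 percentage points to either side, which covers counting error only. It takes the reads as independent and is too narrow where both reads of a pair were counted.

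**Figure D1:**
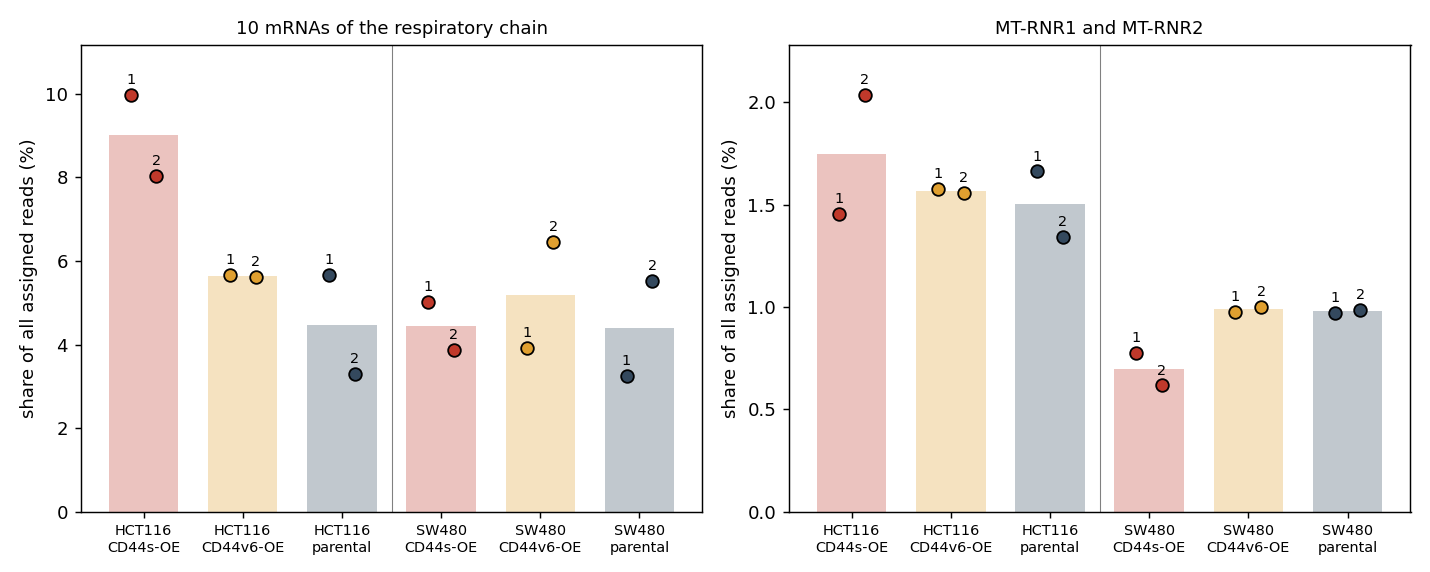
Share of all assigned reads, in percent, taken by the 10 mRNAs (left) and by the ribosomal RNAs MT-RNR1 and MT-RNR2 (right), with bars at the mean and points at the 2 libraries of each group, numbered as replicates. The HCT116 CD44s-OE libraries stand at 9.98% and 8.03% on the left, while on the right they lie at 1.46% and 2.04% on either side of the HCT116 parental library at 1.66%.

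The mean share was 9.01% ± 1.38 in HCT116 CD44s-OE against 4.48% ± 1.68 in HCT116 parental cells (SD, n = 2 each), a 2.01-fold ratio. Against HCT116 CD44v6-OE, at 5.64% ± 0.0349 (SD, n = 2), the ratio was 1.60-fold. In SW480 the mean shares were 4.46% ± 0.812 in CD44s-OE, 5.18% ± 1.79 in CD44v6-OE and 4.39% ± 1.62 in parental cells (SD, n = 2 each). With 2 libraries against 2, no exact test of a share can go below a two-sided p of 0.333. Over both lines, an exact permutation test of the log2 share within lines (36 relabellings, smallest possible p 0.0556) gave p = 0.222 for CD44s-OE against parental cells. The same exact test gave p = 0.333 for CD44v6-OE against parental cells and p = 0.389 for CD44s-OE against CD44v6-OE, and all 3 were at 0.389 after Benjamini-Hochberg adjustment. In bulk RNA, more mitochondrial mRNA per cell and a larger number of cells rich in it cannot be told apart.

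The replicates of one group were often far apart. The higher parental library had 1.72 times the share of the lower one in HCT116 and 1.70 times in SW480, and the 2 libraries of SW480 CD44v6-OE differed by 1.65 times. For single genes, the ratio of the higher to the lower replicate had a median of 1.86 over the 10 genes in HCT116 parental cells and of 1.76 in SW480 parental cells. Among the 132 nuclear genes with at least 500 CPM in every library, the median ratio was 1.09 in HCT116 parental and 1.18 in SW480 parental cells. The 10 genes therefore varied more between replicates than abundant nuclear mRNAs did in these groups. In HCT116 CD44v6-OE the median ratio was 1.04 for the 10 genes and 1.05 for the nuclear genes.

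Within HCT116, 8 of the 10 genes were higher in the libraries labelled CD44s-OE than in parental cells at an adjusted p under 0.1 (edgeR quasi-likelihood test, Benjamini-Hochberg over 17335 genes). This call rule held for 14.2% of all genes tested, and for 8.45% when only higher genes were counted. None of the 8 had a log2 fold change over 1.5, the minimum the study set beside its p-value, which 3.09% of all genes passed. The median log2 fold change was 1.00 over the 10 genes and 0.04 over all genes.

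The complex I genes encode membrane-arm subunits of NADH dehydrogenase. MT-ND1 was at 4565 and 4584 CPM in HCT116 CD44s-OE and at 3237 and 2040 CPM in parental cells (log2 fold change ± SE 0.78 ± 0.18, adjusted p = 0.0338). MT-ND4 was at 11185 and 9710 CPM in HCT116 CD44s-OE and at 6085 and 3304 CPM in parental cells, with a log2 fold change of 1.15 ± 0.24 (adjusted p = 0.0240). For both genes each CD44s-OE library lay above each parental library. MT-ND5 was the least abundant of the heavy-strand set per length. It stood at 3768 and 3211 CPM in HCT116 CD44s-OE and at 2163 and 978 CPM in parental cells (log2 fold change 1.15 ± 0.32, adjusted p = 0.0724). MT-ND2 did not pass the test. It was at 5347 and 5370 CPM in HCT116 CD44s-OE against 4485 and 2296 CPM in parental cells, which do not overlap, and its log2 fold change was 0.65 ± 0.24 (adjusted p = 0.133).

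MT-ND6, the complex I gene on the other strand, also missed the threshold. Its counts were small, at 690 and 1041 reads in HCT116 CD44s-OE and 809 and 305 reads in parental cells. The groups overlapped, since parental library 1 lay between the CD44s-OE libraries, and the log2 fold change was 0.66 ± 0.38 (adjusted p = 0.312).

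MT-CYB, the cytochrome b of complex III, had the largest difference of the 10. It was at 6671 and 4259 CPM in HCT116 CD44s-OE and at 2795 and 1567 CPM in parental cells (log2 fold change 1.32 ± 0.30, adjusted p = 0.0373). Its 2 CD44s-OE libraries differed by 1.57 times, the largest replicate ratio of the 10 genes in that group, and both lay above the parental libraries.

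The 3 catalytic-core subunits of cytochrome c oxidase (complex IV) were the most abundant per length. MT-CO2 was at 24293 and 18705 CPM in HCT116 CD44s-OE and at 12638 and 8398 CPM in parental cells. The difference was 1.03 ± 0.20 on the log2 scale, with the lowest adjusted p of the 10 (0.0206). MT-CO1 was at 21109 and 17661 CPM in HCT116 CD44s-OE and at 11964 and 6392 CPM in parental cells (log2 fold change 1.07 ± 0.24, adjusted p = 0.0320). MT-CO3 was at 15413 and 11791 CPM in HCT116 CD44s-OE and at 9123 and 5743 CPM in parental cells (log2 fold change 0.87 ± 0.21, adjusted p = 0.0411). All 3 separated the groups. MT-ATP6, a subunit of the proton channel of ATP synthase, was at 7431 and 5021 CPM in HCT116 CD44s-OE and at 4134 and 2194 CPM in parental cells (0.97 ± 0.30, adjusted p = 0.0870), also without overlap. In all, 9 of the 10 genes did not overlap between these groups, as did 50.8% of all genes tested in either direction.

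**Figure D2:**
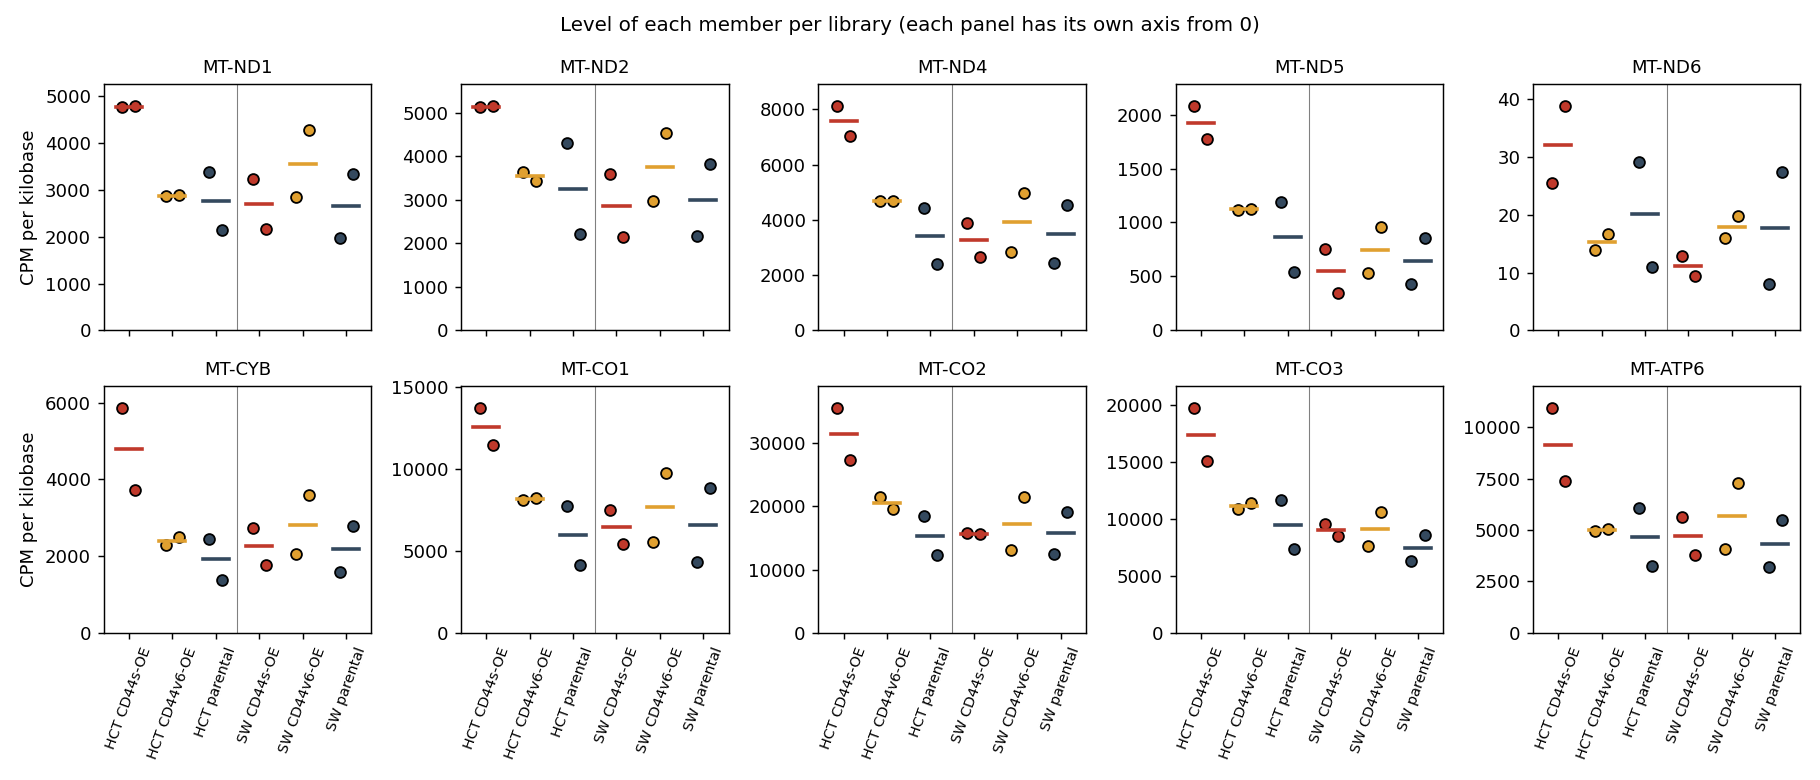
Level of each of the 10 genes in CPM per kilobase of gene, with points for the 2 libraries and a line at the mean of each group, HCT116 (HCT) left and SW480 (SW) right of the grey line. Each panel has its own axis from 0, and in every panel the mean of HCT116 CD44s-OE is the highest of the 6 group means.

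These calls rested on the parental libraries as well as on the CD44s-OE libraries. For MT-ND5 and MT-ATP6 they also rested on the CD44v6-OE libraries, which share the estimate of the spread. Neither gene was called by edgeR with only the compared libraries. Without HCT116 parental replicate 2, the library with the lowest share in HCT116, 0 of the 10 genes passed edgeR's test, although 8 had an unadjusted p under 0.05 and 1.4% of all genes were called. DESeq2 was not run on this subset. The 8 genes called on all libraries then had log2 fold changes of 0.50 (MT-ND1), 0.78 (MT-ND4), 0.69 (MT-ND5), 0.98 (MT-CYB), 0.70 (MT-CO1), 0.77 (MT-CO2), 0.58 (MT-CO3) and 0.60 (MT-ATP6). Without CD44s-OE replicate 1, MT-ND1, MT-CO2 and MT-CO3 were called, 3 of the 10, while 28.6% of all genes were called. Without parental replicate 1 the log2 fold changes of the 10 genes were 1.13 to 1.80. The difference was above 0 for each of the 10 genes in each of these fits, and DESeq2 on all libraries called 9 of 10, with 18.8% of all genes.

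Against the libraries labelled CD44v6-OE, the HCT116 libraries labelled CD44s-OE were higher for all 10 genes without overlap, as were 41.4% of all genes in either direction, but 0 of 10 passed the test (edgeR, adjusted p 0.142 to 0.446), with 0.813% of all genes called. All 10 had an unadjusted p under 0.05, and DESeq2 called 8 of them, with 3.27% of all genes. The log2 fold changes ranged from 0.57 to 1.10 with a median of 0.75, against 0.01 over all genes. MT-ND1 had the lowest adjusted p, its CD44s-OE libraries standing at 4565 and 4584 CPM against 2746 and 2762 CPM with CD44v6-OE (log2 fold change 0.77 ± 0.18). MT-ND6 had the largest difference, with 690 and 1041 reads in CD44s-OE and 379 and 455 reads in CD44v6-OE (log2 fold change 1.10 ± 0.38, adjusted p = 0.341).

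HCT116 CD44v6-OE and parental cells were closer. None of the 10 genes passed edgeR's test, none had an unadjusted p under 0.05 and DESeq2 called 0, while 1.53% of all genes were called. The log2 fold changes were 0.01 to 0.41 for 9 genes and −0.44 ± 0.38 for MT-ND6. The groups did not overlap for 3 of the 10 genes, all higher in CD44v6-OE, as did 50.7% of all genes in either direction. MT-CO1 was one of these, at 12510 and 12650 CPM in CD44v6-OE against 11964 and 6392 CPM in parental cells (log2 fold change 0.41 ± 0.24).

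In SW480, no gene of the 10 passed edgeR's test in any of the 3 comparisons, none had an unadjusted p under 0.05 and DESeq2 called none. Of all genes, 4.72% were called between CD44s-OE and parental cells, 0.57% between CD44v6-OE and parental cells and 2.12% between CD44s-OE and CD44v6-OE. The log2 fold changes between CD44s-OE and parental cells were −0.31 to 0.19 for the 9 heavy-strand genes and −0.74 ± 0.46 for MT-ND6. MT-CO2, for instance, was at 10756 and 10694 CPM in SW480 CD44s-OE and at 8574 and 13063 CPM in parental cells, whose libraries lay on either side. MT-CYB was at 3121 and 2021 CPM in SW480 CD44s-OE and at 1802 and 3179 CPM in parental cells, again overlapping.

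Between SW480 CD44v6-OE and parental cells, the log2 fold changes ran from −0.03 (MT-ND6) to 0.36 (MT-ND1), with MT-ND1 at 2727 and 4088 CPM in CD44v6-OE and 1890 and 3190 CPM in parental cells. Between SW480 CD44s-OE and CD44v6-OE all 10 were negative, from −0.71 (MT-ND6) to −0.03 (MT-CO3), and only MT-ND6 separated the groups. It had 306 and 252 reads in CD44s-OE and 384 and 472 reads in CD44v6-OE (adjusted p = 0.652). Without overlap were 0 of the 10 genes between SW480 CD44s-OE and parental cells (42.3% of all genes in either direction), 0 of 10 between SW480 CD44v6-OE and parental cells (38.3%) and 1 of 10 between SW480 CD44s-OE and CD44v6-OE (46.5%). These comparisons share libraries within a line and are not independent of one another.

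**Figure D3:**
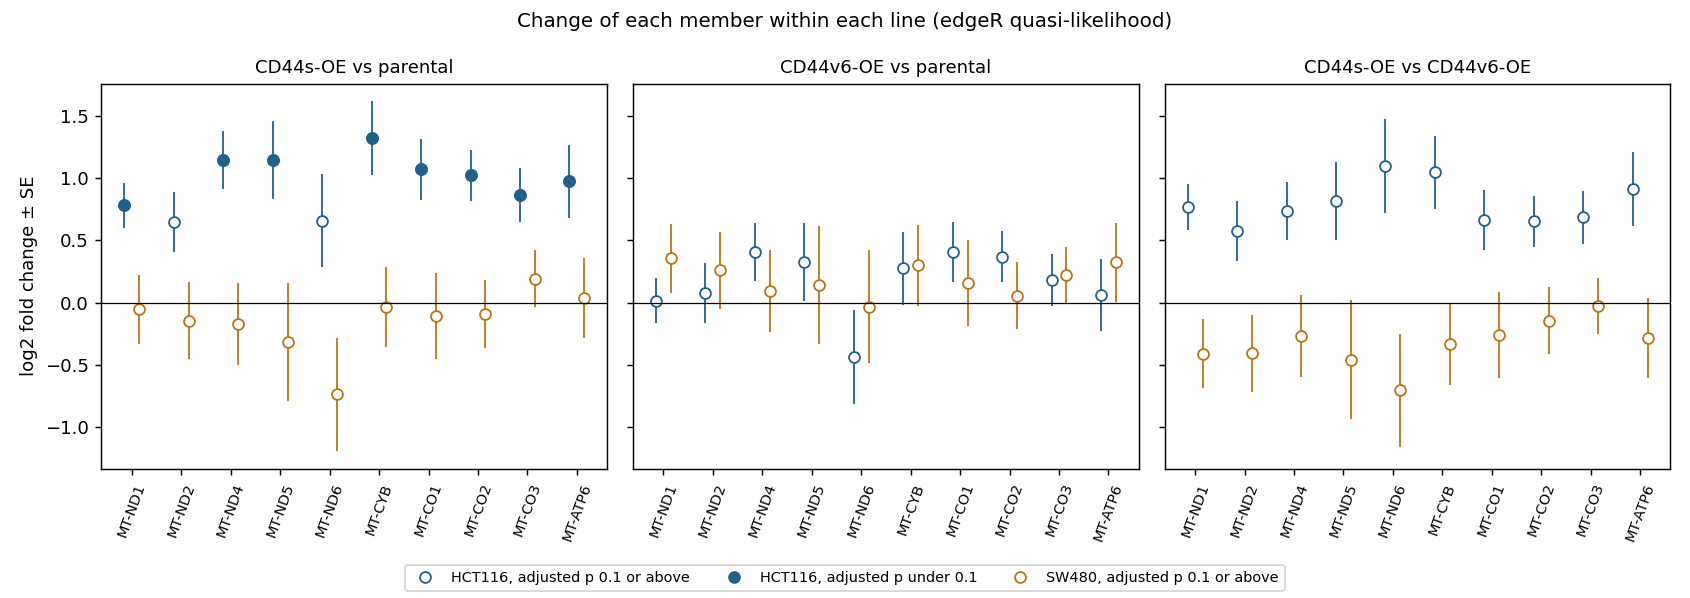
Log2 fold change with its standard error for each of the 10 genes in HCT116 (blue) and SW480 (orange), filled where the adjusted p is under 0.1. Only 8 points are filled, all of them in HCT116 CD44s-OE against parental cells, where values run from 0.65 to 1.32.

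The difference between the lines was tested as an interaction. For CD44s-OE against parental cells, the log2 fold change in SW480 minus that in HCT116 was negative for all 10 genes, from −1.44 (MT-ND5, SE 0.69) to −0.65 (MT-CO3, SE 0.33). None passed edgeR's test (adjusted p 0.147 to 0.455), 5 had an unadjusted p under 0.05, and 3.92% of all genes were called. DESeq2 called 3 (MT-ND4, MT-CO2 and MT-CYB), with 10.6% of all genes. For CD44s-OE against CD44v6-OE the difference ran from −1.81 (MT-ND6, SE 0.73, adjusted p = 0.529) to −0.72. It passed for 0 of 10 genes in edgeR, 6 of them with an unadjusted p under 0.05, and for MT-ND1 in DESeq2, beside 0.491% and 2.03% of all genes. For CD44v6-OE against parental cells it lay between −0.29 and 0.44, with 0 of 10 called by edgeR or DESeq2, none with an unadjusted p under 0.05 and 0.409% of all genes called. A different response of the 10 genes in the 2 lines was thus not shown by the edgeR test.

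Over both lines together, the 10 genes were 0.07 to 0.71 above parental cells on the log2 scale in CD44s-OE, and 0 passed edgeR's test, with 6.81% of all genes called. MT-CO3 came closest (0.55 ± 0.19, adjusted p = 0.126). It was the only gene with an unadjusted p under 0.05 and the only one DESeq2 called, beside 11.2% of all genes. For CD44v6-OE against parental cells and for CD44s-OE against CD44v6-OE, 0 of the 10 genes passed in edgeR or DESeq2 and none had an unadjusted p under 0.05, with 0.204% and 0.905% of all genes called. The parental lines differed at 60.9% of all genes tested, but at 0 of these 10 in edgeR or DESeq2, with none at an unadjusted p under 0.05. The log2 fold changes of SW480 over HCT116 parental cells were −0.41 (MT-ND5) to 0.20 (MT-CYB), with standard errors of 0.23 to 0.51.

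Scaled by gene length, the order of the 10 genes was nearly the same in all 6 groups. By mean CPM per kilobase, every group ran from MT-CO2 at the top through MT-CO3, MT-CO1, MT-ATP6, MT-ND4 and MT-ND2 to MT-ND1 and MT-CYB, with MT-ND5 and then MT-ND6 at the bottom. MT-CYB was ahead of MT-ND1 in HCT116 CD44s-OE and behind it in the other 5 groups. MT-CO2 averaged 31431 ± 5777 CPM per kilobase in HCT116 CD44s-OE and 15377 ± 4383 CPM per kilobase in HCT116 parental cells (SD, n = 2 each). The mean level of MT-CO2 per kilobase was 16.3 to 28.5 times that of MT-ND5 and 765 to 1413 times that of MT-ND6. Since the labels give polyA RNA, the value of MT-ND6 is its level in the libraries and may differ from that in the cells. MT-CYB and MT-ND1 did not differ beyond their spread in HCT116 CD44s-OE, at 4790 ± 1495 and 4785 ± 13.5 CPM per kilobase (SD, n = 2 each).

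The make-up of the sum varied less than its size. MT-CO2 held 21.4% to 27.5% of the reads of the 10 genes in a library and MT-CO1 held 19.4% to 24.6%. MT-ND5 was more variable, from 1.61% in SW480 CD44s-OE 2 to 4.00% in HCT116 CD44s-OE 2. Complex I genes made up 24.9% and 28.5% of the sum in HCT116 CD44s-OE and 28.2% and 26.2% in HCT116 parental cells, and complex IV genes 60.9% and 59.9% against 59.5% and 62.4%, so both shares overlapped. MT-CYB held 6.69% and 5.30% of the sum in HCT116 CD44s-OE and 4.94% and 4.76% in HCT116 parental cells, which do not overlap. Single genes of complex I and of complex IV also separated these groups, in opposite directions. MT-ND4 held 11.2% and 12.1% in HCT116 CD44s-OE against 10.7% and 10.0% in parental cells. Lower in CD44s-OE were MT-ND1 (4.57% and 5.71% against 5.72% and 6.20%) and MT-ND2 (5.36% and 6.68% against 7.92% and 6.98%). Of the complex IV genes, MT-CO1 was higher in CD44s-OE by a narrow margin and MT-CO3 was lower. The proportions of a library share the same total, so a rise in some comes with a fall in others. No test was made of these proportions.

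MT-ND6 took 0.0127% to 0.0270% of the reads of the 10 genes. Its share was 0.0134% and 0.0254% in HCT116 CD44s-OE, 0.0129% and 0.0156% in HCT116 CD44v6-OE and 0.0270% and 0.0176% in HCT116 parental cells. In SW480 the share was 0.0133% and 0.0127% in CD44s-OE, 0.0215% and 0.0162% in CD44v6-OE and 0.0129% and 0.0261% in parental cells. Within a line, HCT116 CD44v6-OE lay below HCT116 parental cells and SW480 CD44s-OE below SW480 CD44v6-OE, and the other pairs of groups overlapped.

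After centring each line, the log2 CPM of the 9 heavy-strand genes varied together over the 12 libraries, with Pearson correlations between pairs of 0.83 to 0.99 (median 0.95). MT-ND6 correlated with them at 0.65 to 0.86. These values are descriptions over 12 libraries that share the same totals. Along the chromosome, the log2 fold change between HCT116 CD44s-OE and parental cells tended to be larger for genes farther from the start of the heavy-strand transcript, from 0.78 (MT-ND1) and 0.65 (MT-ND2) to 1.32 (MT-CYB). Spearman's rho with position was 0.80 over the 9 genes, which come from the same libraries. In SW480 it was −0.03 for the same comparison, and between the 2 replicates of HCT116 CD44s-OE it was 0.57.

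The other rows of the mitochondrial chromosome did not all follow. Of the 3 short protein-coding genes, MT-ND4L was called higher in HCT116 CD44s-OE, at 1266 and 944 CPM against 759 and 472 CPM in parental cells (log2 fold change 0.84 ± 0.22, adjusted p = 0.0491). MT-ND3 was at 2351 and 1211 CPM in HCT116 CD44s-OE and at 1234 and 1375 CPM in parental cells, and MT-ATP8 at 502 and 247 CPM against 305 and 161 CPM, and neither passed. The ribosomal RNAs, which make up the mitochondrial ribosome, did not pass edgeR's test in any comparison within a line, whereas DESeq2 called MT-RNR2 in SW480 CD44s-OE against parental cells. There MT-RNR2 was at 6725 and 5047 CPM in SW480 CD44s-OE, against 8440 and 8498 CPM in parental cells, and the groups did not overlap. In HCT116, MT-RNR2 was at 11396 and 14451 CPM in HCT116 CD44s-OE and at 12604 and 10199 CPM in parental cells, so parental library 1 lay between the CD44s-OE libraries. The 10 mRNAs had 6.85 and 3.94 times the reads of both ribosomal RNAs in HCT116 CD44s-OE, 3.59 and 3.60 times in HCT116 CD44v6-OE and 3.41 and 2.45 times in HCT116 parental cells. Since the labels give polyA RNA, the ribosomal RNA values and these ratios describe the libraries and may differ from those in the cells. Between the parental lines, 3 of these 5 rows were called, all lower in SW480, beside 60.9% of all genes called in either direction. MT-RNR1 was at 1288 and 1359 CPM in SW480 and at 4023 and 3232 CPM in HCT116 parental cells, MT-RNR2 at 8440 and 8498 CPM against 12604 and 10199 CPM, and MT-ND3 at 643 and 541 CPM against 1234 and 1375 CPM.

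Nuclear copies of mitochondrial DNA are close enough in sequence to share reads with the genes they came from. Of 21 such copies in the table, 8 averaged at least 1 CPM. The largest were MTATP6P1, on chromosome 1 of hg19, with 12.4% of the reads of MT-ATP6, and MTND2P28, also on chromosome 1, with 4.39% of those of MT-ND2. Each other copy of one of the 10 genes had at most 0.154% of the reads of that gene. MTATP6P1 was at 942 and 593 CPM in HCT116 CD44s-OE and at 515 and 293 CPM in parental cells, in the same order of libraries as MT-ATP6. Reads of these pairs could be split between the gene and its copy, so the counts of MT-ATP6 and MT-ND2 are uncertain. In HCT116 CD44s-OE against parental cells, 4 of the 14 copies tested were called, all higher, where 8.45% of all genes were called higher. They were MTCO1P12, MTCO3P12 and the rare MTND1P23 and MTND4P12. MTCO1P12 was at 31.4 and 27.3 CPM in CD44s-OE and 19.3 and 9.90 CPM in parental cells.

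Of 79 nuclear genes tested for subunits of the same machinery, 0 were called higher and 7 were called lower in HCT116 CD44s-OE against parental cells, where 14.2% of all genes were called in either direction. The list's median log2 fold change was −0.12, against 1.00 for the 10 mitochondrial genes and 0.04 over all genes. NDUFB10, a complex I subunit, was at 167 and 202 CPM in HCT116 CD44s-OE and at 287 and 313 CPM in parental cells (log2 fold change −0.72 ± 0.13, adjusted p = 0.0140). NDUFAB1, the mitochondrial acyl carrier protein, was at 80.9 and 86.9 CPM in HCT116 CD44s-OE and at 123 and 116 CPM in parental cells (−0.52 ± 0.12). CYC1 of complex III (−0.58), COX5A of complex IV (−0.48), ATP5PB and ATP5F1B of ATP synthase (−0.57 and −0.46) and SDHB of complex II (−0.55) were the others. In SW480 CD44s-OE against parental cells 1 of 79 was called, beside 4.72% of all genes. It was ATP5MC1, at 84.6 and 105 CPM in CD44s-OE and 56.0 and 59.2 CPM in parental cells (log2 fold change 0.63 ± 0.17, edgeR adjusted p = 0.0780). No nuclear subunit passed edgeR's test in the other 4 comparisons within a line, where edgeR called 0.57% to 2.12% of all genes. In these 4, 1 to 9 of the 79 had an unadjusted p under 0.05 and DESeq2 called 0 or 1. In SW480 CD44s-OE against CD44v6-OE, 69 of the 79 nuclear subunit genes had a positive log2 fold change, with a median of 0.23 against 0.01 over all genes, whereas the 10 mitochondrial genes were all negative there with a median of −0.31. In that comparison 9 of the 79 had an unadjusted p under 0.05 and DESeq2 called 1.

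**Figure D4:**
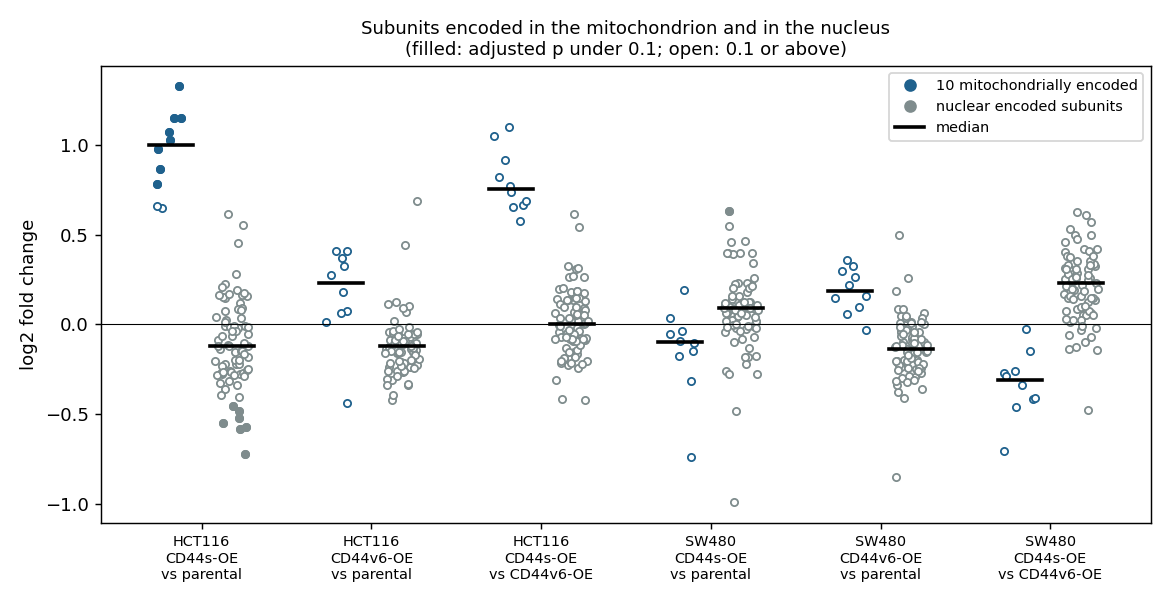
Log2 fold change of the 10 mitochondrially encoded genes (blue) and of the 79 nuclear genes for subunits of the same machinery (grey) in the 6 comparisons within a line, with black lines at the medians and filled points at an adjusted p under 0.1. In HCT116 CD44s-OE against parental cells the medians are 1.00 and −0.12.

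In HCT116 CD44s-OE against parental cells, 14.2% of all genes were called in either direction, and genes that make and process mitochondrial RNA were not called more often. Of the 17 genes for mitochondrial transcription and DNA maintenance, 2 were called in HCT116 CD44s-OE against parental cells, the helicase TWNK (log2 fold change −0.59 ± 0.14) and RNASEH1 (−0.68 ± 0.15), which removes RNA from RNA-DNA hybrids. Of 31 genes for mitochondrial RNA processing and decay, 3 were called. FASTK, whose mitochondrial form is known to be needed for MT-ND6 mRNA, was called higher, at 110 and 139 CPM in HCT116 CD44s-OE and 94.0 and 85.1 CPM in parental cells (0.46 ± 0.13). ELAC2, which cuts tRNA 3′ ends, was called lower in both lines, at −0.47 ± 0.12 in HCT116 and −0.54 ± 0.15 in SW480 for CD44s-OE against parental cells, and the rRNA methyltransferases MRM1 in HCT116 (−0.82 ± 0.23) and MRM3 in SW480 (−0.70 ± 0.16) were called lower. The calls in SW480 were 2 of 31, beside 4.72% of all genes. PNPT1, a mitochondrial exoribonuclease, was called higher in HCT116 CD44v6-OE, at 44.9 and 46.5 CPM against 28.3 and 26.8 CPM in parental cells (0.68 ± 0.14), where 1.53% of all genes were called.

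For translation, 7 of 21 mitochondrial translation and assembly factors and 14 of 77 mitochondrial ribosomal protein genes were called in HCT116 CD44s-OE against parental cells, all of them lower, with list medians of −0.32 and −0.23 on the log2 scale, beside 14.2% of all genes called in either direction and a median of 0.04 over all genes. TUFM, the mitochondrial elongation factor Tu, was at 536 and 461 CPM in HCT116 CD44s-OE and at 730 and 747 CPM in parental cells (log2 fold change −0.58 ± 0.13), and the ribosome recycling factor MRRF was at −0.64 ± 0.12. MRPL11 and MRPS18B, of the large and small ribosomal subunit, were at −0.66 ± 0.12 and −0.65 ± 0.13. In SW480 CD44s-OE against parental cells, 1 gene of each of these lists was called, SCO1 (−0.75 ± 0.16) and MRPS31 (−0.81 ± 0.16), both lower, beside 4.72% of all genes. Of 7 tested regulators of mitochondrial biogenesis, ESRRA (−0.54 ± 0.15) and PPRC1 (−0.49 ± 0.16) were called lower in HCT116 CD44s-OE against parental cells. In SW480, 1 of 9 was called in this comparison, ESRRG, which was higher but scarce and is named here after its values were seen.

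The nuclear genes whose log2 CPM was most like the mean of the 10, after centring each line, were MTCO1P12 (Pearson's r 0.96) and MTCO2P12 (0.95), which are nuclear copies of MT-CO1 and MT-CO2. Such copies can share reads with the genes they came from, so their r may not describe nuclear transcripts. IQGAP3, a scaffold protein gene, FOXH1, a transcription factor, and EIF4A2, an RNA helicase of translation initiation, followed at 0.94, 0.93 and 0.93. These are the 5 highest of 15495 nuclear genes over 12 libraries, given as a description, and FOXH1 averaged only 0.317 CPM.

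Of 4 nuclear or non-polyadenylated RNAs tested, MALAT1 alone was called in HCT116 CD44s-OE against parental cells, where 14.2% of all genes were called. This long noncoding RNA held in the nucleus was at 34.8 and 76.2 CPM in HCT116 CD44s-OE, 48.6 and 49.2 CPM in HCT116 CD44v6-OE and 19.6 and 8.68 CPM in parental cells (CD44s-OE against parental, log2 fold change 1.95 ± 0.44, adjusted p = 0.0464). NEAT1, another nuclear RNA, was at 45.2 and 99.8 CPM in HCT116 CD44s-OE and at 50.2 and 13.2 CPM in parental cells, which overlap. MALAT1 and NEAT1 were each at their lowest in HCT116 parental 2, the library with the lowest share of the 10 mRNAs in HCT116. SW480 parental 1, with the lowest share in SW480, likewise had the lowest MALAT1 and NEAT1 of that line (27.7 and 46.2 CPM). HCT116 parental 2 and SW480 parental 1 also had the fewest detected genes of their lines, at 24732 and 23601. The fibroblast list of 6 genes, of which COL1A2, DCN and LUM were under 1 CPM in every library, summed to 32.1 to 58.2 CPM in HCT116 CD44s-OE, 32.7 to 35.4 CPM in HCT116 CD44v6-OE and 13.4 to 19.2 CPM in HCT116 parental cells, a sum that was not tested. The part of these values in the result was not tested.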

How the data were processed

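RNA of 12 libraries was sequenced in pairs on DNBSEQ. According to the labels and the study's methods, the authors filtered reads with SOAPnuke, aligned them to hg19 with STAR 2.7.9a, marked duplicates with Sambamba and counted reads over GENCODE exons with featureCounts (Subread 2.0.3). The deposited count table holds raw counts per gene, counted by strand, with duplicates and primary alignments of multi-mapped reads kept, with reads over more than 1 gene left out and each read of a pair counted. The deposited table of variance-stabilized values (log2-like, from DESeq2 1.30.1 by the authors) was used here only for gene symbols and to match columns.

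The counts of HCT116 and of SW480 were modelled separately in R 4.3.3 with edgeR 4.0.16, which builds on limma 3.58.1, using filterByExpr, TMM normalization, a robust quasi-likelihood test and Benjamini-Hochberg adjustment over all genes tested, called at an adjusted p under 0.1. Further fits covered both lines and their difference. The standard error is the absolute log2 fold change over the square root of F. CPM and shares use the total of all gene counts, and correlations log2(CPM + 0.5). The fitting code was also run on simulated counts with the same spread for all genes. That does not check the calls at the replicate spread of the 10 genes. Alternatives were RLE, no TMM, scaling without mitochondrial rows, no filter, robust=FALSE, DESeq2 1.42.0, a replicate block, halved counts, only the libraries compared, other thresholds, other denominators and each library left out. The 10 genes are all named. Of each gene list, up to 2 called genes in each direction with an average of at least 1 on the log2 CPM scale were named, by lowest adjusted p. The further nuclear subunits named were the list's other called genes. The genes and lists were chosen with earlier results of these data known. The mitochondrial ribosomal protein list was added after the data were seen. Sequences are from the GRCh37 reference. Proteins and promoters of the 10 genes were not used here.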

Additional observations from a re-analysis of the deposited data

How the results depend on the processing

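Between HCT116 CD44s-OE and parental cells, 8 of the 10 genes were called, and leaving out 1 library gave 0 to 10 calls, with 0 without parental replicate 2 and 10 without parental replicate 1. A fold minimum gave 0 and DESeq2 gave 9. With only the compared libraries, MT-ND5 and MT-ATP6 lost their calls (edgeR adjusted p = 0.144 and 0.160). Between HCT116 CD44s-OE and CD44v6-OE, the 0 calls became 8 with DESeq2, 7 without a filter on low counts and 1 with only the compared libraries, and leaving out 1 library gave 0 to 3. Without the filter, 1 gene was called between HCT116 CD44v6-OE and parental cells, 1 over both lines for CD44s-OE against parental cells, 3 for the difference between lines in each of the CD44s-OE comparisons and 1 between the parental lines. DESeq2 called 1 gene over both lines and 3 for the difference between lines in CD44s-OE against parental cells, and 1 for the difference in CD44s-OE against CD44v6-OE. Total counts without TMM called 1 over both lines for CD44s-OE against parental cells. Only the compared libraries called 1 between SW480 CD44s-OE and CD44v6-OE. Leaving out 1 library gave 0 to 1 calls in each SW480 comparison, over both lines for CD44s-OE against parental cells and between the parental lines, and 0 to 2 for the difference in CD44s-OE against parental cells. Where no share of all genes called is given above for a setting, these counts stand without it. A gain in the 10 genes then cannot be told apart from a general gain in calls. The cause of these changes was not tested.

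Whether the replicate numbers pair the libraries is not known. The correlation of replicate differences between groups ran from 0.06 to 0.23 within HCT116 and from −0.24 to 0.11 within SW480, which cannot settle it. With a replicate block, 9 of the 10 genes were called between HCT116 CD44s-OE and parental cells, 3 between HCT116 CD44s-OE and CD44v6-OE and 1 between the parental lines. The share of all genes called with the block is not given here, so these counts cannot be set against it.

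The log2 ratio of the summed share ran from 0.67 to 1.45 for HCT116 CD44s-OE against parental cells with 1 library left out. It ran from −0.00632 to 0.78 for HCT116 CD44v6-OE against parental cells and from 0.51 to 0.82 for HCT116 CD44s-OE against CD44v6-OE. In SW480 it ran from −0.31 to 0.46 for CD44s-OE against parental cells, from −0.16 to 0.68 for CD44v6-OE against parental cells and from −0.53 to 0.19 for CD44s-OE against CD44v6-OE. The log2 fold change of MT-ND6 between SW480 CD44v6-OE and parental cells ran from −0.62 without SW480 parental replicate 1 to 1.02, then called, without SW480 parental replicate 2, against −0.03 on all libraries. With 2 libraries a group, 1 library could decide a call, and no empty-vector group separates the plasmid from its insert.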
